A study of Drosophila melanogaster with 3 samples.

Results

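The regions described here are 647 narrow peaks, those under 600 bp wide, among the 7556 peaks that a chromatin immunoprecipitation (ChIP-seq) sample of Drosophila melanogaster placed on the chromosome arms 2L, 2R, 3L, 3R, 4 and X. They made up 8.56% of the arm peaks, and the other 6909 peaks, of 600 bp or more, are called wider. The narrow peaks were chosen by their width in the deposited peak list, so width is no finding, and the score, which came from the same peak call, is given as a description without a test. The ChIP sample is labelled as stage 3dFemale from source 7T, carries a cad-GFP transgene, was precipitated with an anti-GFP antibody (NWG-GFP), and its title covers replicates 1 and 2. The 2 input samples have the same stage and source and were not analysed here. The growth text of all 3 samples describes y w, VK33 flies and an embryo collection, which differs from the labelled stage, and the stage is quoted here without further reading. The labels give neither the promoter that drives the tagged protein nor the cells that make it. The ChIP replicates are represented by a single list, and no replicate error can be given for any value.

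The cad gene encodes Caudal, a homeodomain protein that recognises short AT-rich sites and is known for posterior patterning of the fly embryo and for its role in the adult intestine. In ChIP-seq, sheared chromatin bound by the tagged protein is recovered and sequenced, and a peak caller marks stretches where reads pile up over the background. A single bound site usually gives a pile about as wide as the sheared fragments on both sides of it, while wide peaks can hold several sites or a spread-out signal. A narrow peak may therefore stand by itself, or it may lie beside a wider one as a satellite. Whether Caudal was bound at any of these positions was not tested, and no peak is assigned to a gene here, because the gene table used was of another genome release than the BDGP5 build of the peaks.

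The narrow peaks were 258 to 599 bp wide, with a median of 491 bp and quartiles of 411.5 and 550 bp. Only 5 were under 300 bp, 136 (21.0%) were under 400 bp and 342 (52.9%) under 500 bp. Nothing in the list of widths sets 600 bp apart. There were 141 peaks of 500 to under 550 bp, 164 of 550 to under 600 bp, 212 of 600 to under 650 bp and 242 of 650 to under 700 bp. The class is thus the lower flank of 1 continuous distribution. The 3 peaks just below the threshold were each 599 bp wide and scored 124.95, 139.24 and 150.73, while the 3 just above it were each 600 bp wide and scored 62.46, 89.42 and 154.68. Altogether the narrow peaks covered 309.45 kb, or 2.30% of the length covered by arm peaks.

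The narrowest peak of the arms lay on 3L, at chr3L:9737104-9737361, with a score of 56.61. The narrowest of X was chrX:15690282-15690562 (281 bp, score 78.85) and that of 3R was chr3R:2648701-2648980 (280 bp, score 65.87). On 2R it was chr2R:18412725-18413024 (300 bp, score 50.27), which lay 14 bp from another narrow peak but 10578 bp from a wider one. On 2L it was chr2L:20026347-20026675 (329 bp, score 77.12), with 34106 bp to the nearest peak of any width. The wider peak nearest to the 3L record was 13254 bp away. Of these 5 peaks, the narrowest of 2L, 2R, 3L, 3R and X, 3 had no wider peak within 10 kb. Among all narrow peaks 28.0% had none within that distance. The narrowest of chromosome 4, chr4:980363-980909 (547 bp), lay 53711 bp from a wider peak. The 5 peaks under 300 bp were all on 3L, 3R and X. They lay 13254, 3472, 5205, 5356 and 2971 bp from a wider peak, so most had a wider peak within 10 kb.

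The deposited score of the authors is not defined in the file. It starts at 50 and reaches 3145.59, and 29 peaks of the whole list share the value 3100 exactly, with 2 above it. Scores are read here only as an order within this list, not as amounts of binding. Narrow peaks sat near the floor of that scale. Their median score was 73.55, with quartiles of 60.4 and 99.4, against a median of 223.09 and quartiles of 116.35 and 451.58 in wider peaks. A score under 100 was held by 488 narrow peaks (75.4%) and by 1328 wider peaks (19.2%), where all arm peaks together gave 24%. Scores under 60 were held by 158 narrow peaks (24.4%) and 302 wider peaks (4.37%). At the other end, 38 narrow peaks (5.87%) scored 150 or more and 10 scored 200 or more, whereas 4538 wider peaks (65.7%) scored 150 or more. No narrow peak came above 318.08, a value that 2563 wider peaks (37.1%) exceeded. These contrasts follow from the choice by width and support nothing by themselves.

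**Figure D1:**
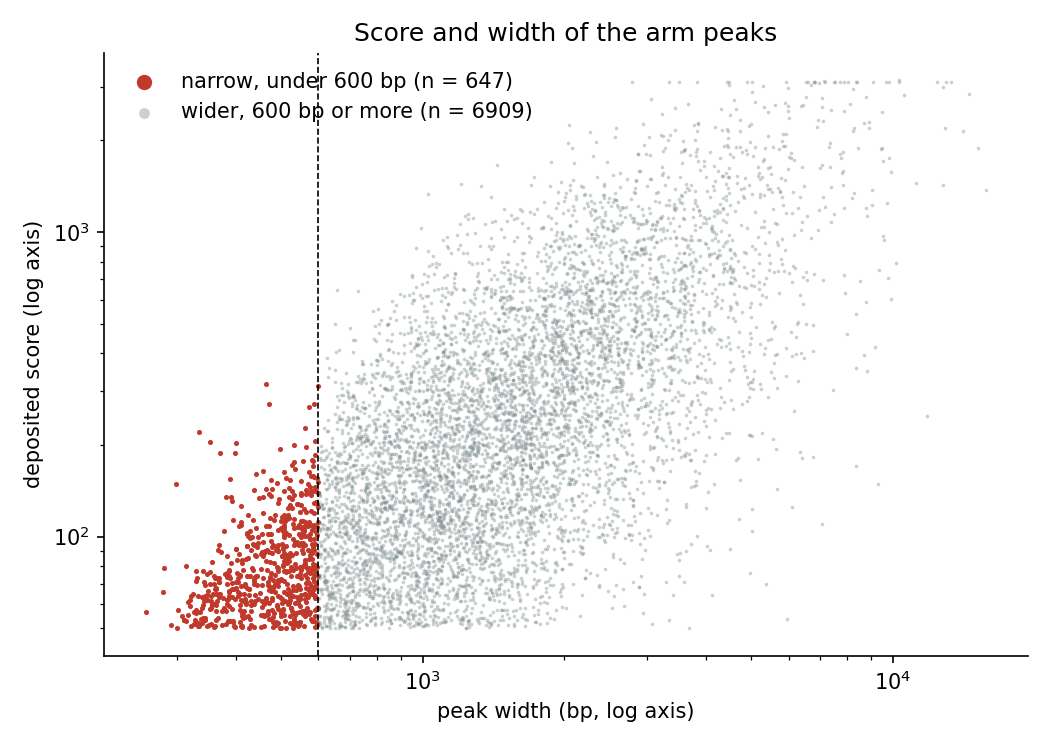
Each point is 1 arm peak, with its width in bp (log axis) against its deposited score (log axis). The 647 narrow peaks left of the dashed line at 600 bp lie between scores of 50 and 318.08, and the 6909 wider peaks reach 3145.59.

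Among the narrow peaks themselves score and width were only loosely related. The median score was 63.1 for the 136 peaks under 400 bp, 72.4 for the 206 peaks of 400 to under 500 bp and 83.3 for the 305 peaks of 500 to under 600 bp. It went on without a break above the threshold, at 107.0 for the 911 peaks of 600 to under 800 bp and 146.0 for the 1660 of 800 to under 1200 bp. Spearman's rho between score and width was 0.32 across the 647 narrow peaks and 0.61 across the 6909 wider ones. Both measures came from the same reads and the same call, and the range of widths is shorter in the narrow class, so the coefficients are descriptions only.

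The highest score of a narrow peak was 318.08, at chr3R:16975839-16976301 (463 bp), which lay 242 bp from a wider peak. The second was chr3L:16595698-16596295 (598 bp), with a score of 311.71 and 5523 bp to the nearest wider peak. The next on 3R were chr3R:8785854-8786441 with a score of 273.01 and chr3R:25381805-25382275 with 272.31. Those at chr3L:12906527-12907100, chr2R:16757596-16758158, chr3R:25145828-25146161 and chr3L:13447842-13448430 scored 265.39, 227.79, 220.76 and 206.09. The last of the 10 were chr3R:12821569-12821921, with 204.92, and chr3R:18125140-18125540, with 203.33. Of these 10 peaks 6 lay on 3R, 3 on 3L and 1 on 2R, arms that held 26.4%, 22.6% and 17.2% of all narrow peaks. The gaps of the 10 to wider peaks ran from 222 bp for chr3R:12821569-12821921 to 56400 bp for chr3R:18125140-18125540. The nearest peak of any width to the latter was a narrow one 230 bp away.

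The next question was whether narrow peaks sit beside wider ones or alone. The measure was the gap, the number of bp between the facing edges of a peak and the nearest other peak of 600 bp or more, and the same gap was taken from each wider peak to its nearest other wider peak. A peak with a gap of 1 kb or less is called a satellite, and a peak with a gap over 20 kb is called alone. Most narrow peaks were neither. Satellites numbered 148 (22.9%, exact 95% binomial interval 19.7 to 26.3%), 205 peaks (31.7%) had a gap over 1 and up to 5 kb, 204 (31.5%) a gap over 5 and up to 20 kb, and 90 (13.9%, interval 11.3 to 16.8%) were alone. Of wider peaks, 2951 (42.7%, interval 41.5 to 43.9%) lay within 1 kb of another wider peak, 2585 (37.4%) at over 1 and up to 5 kb, 1106 (16.0%) at over 5 and up to 20 kb, and 267 (3.86%, interval 3.42 to 4.35%) were alone. Over all arm peaks the share within 1 kb was 41% and the share alone was 4.72%.

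Narrow peaks thus lay further from wider peaks than wider peaks lay from each other. The median gap was 4048 bp for narrow peaks (95% order-statistic interval 3364 to 4800 bp) and 1415 bp for wider peaks (1345 to 1476 bp), and the upper quartiles were 11485.5 and 3925 bp. The intervals treat peaks as independent, which clustered peaks are not, and cover counting only. No p-value is given, because 1 list offers no replicate and the width that chose the peaks and the edges that set the gaps come from the same call. Narrow peaks formed 8.56% of all arm peaks, but 148 of the 3099 peaks within 1 kb of a wider peak (4.78%), 90 of the 357 peaks that were alone (25.2%) and 28 of the 90 peaks with a gap over 50 kb (31.1%). All these contrasts are with other peaks, most of them wider peaks that cluster. Gaps from arbitrary positions were not taken, so whether narrow peaks lie nearer to or further from wider ones than such positions was not tested.

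**Figure D2:**
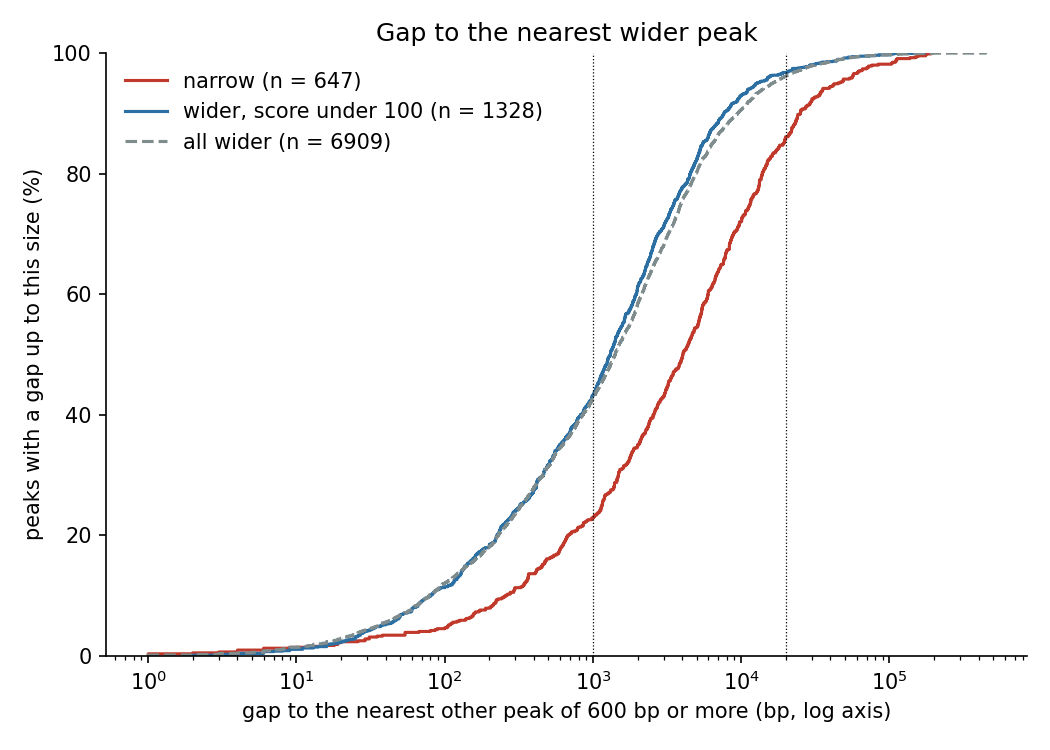
Cumulative share of peaks (percent) by the gap to the nearest other peak of 600 bp or more (bp, log axis), for narrow peaks, for wider peaks with a score under 100 and for all wider peaks, with dotted lines at 1 kb and 20 kb. The curve of narrow peaks runs to the right of both others, with a median of 4048 bp for narrow peaks, 1311 bp for wider peaks of low score and 1415 bp for all wider peaks.

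Low score did not go with large gaps among wider peaks. The 1328 wider peaks with a score under 100 had a median gap of 1311 bp, and 574 of them (43.2%) lay within 1 kb of another wider peak and 43 (3.24%) were alone. The 488 narrow peaks under the same score had a median gap of 4138.5 bp, with 109 satellites (22.3%) and 67 alone (13.7%). The order was the same in each class of score examined. Between scores of 50 and 60, satellites made up 22.2% of 158 narrow and 45.0% of 302 wider peaks. Between 75 and 100 they made up 21.8% of 147 narrow and 44.1% of 599 wider peaks, and between 100 and 150 they made up 21.5% of 121 narrow and 39.9% of 1043 wider peaks. The 38 narrow peaks of score 150 or more included 13 satellites (34.2%), against 43.2% of 4538 wider peaks, and 9 peaks alone (23.7%), against 3.86% of the wider peaks. Their median gap was 4717 bp, against 1413 bp for the wider peaks. Across all narrow peaks score and gap were unrelated in rank (Spearman's rho 0.00, n = 647).

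With width the gap changed by steps. The share within 1 kb of another wider peak was 22.9% for narrow peaks, 34.1% for the 911 peaks of 600 to under 800 bp, 39.0% for the 1660 peaks of 800 to under 1200 bp and 45.9% for the 4338 peaks of 1200 bp or more. The share alone was 13.9%, 10.2%, 5% and 2.10% in the same classes. In the share within 1 kb the step at 600 bp was the largest of the 3, and in the share alone the step at 800 bp was. The share under 400 bp also differed between the gap classes of narrow peaks. Of the 90 narrow peaks alone, 31 (34.4%) were under 400 bp, against 27 of the 148 satellites (18.2%), 31 of the 205 peaks at over 1 and up to 5 kb (15.1%) and 47 of the 204 peaks at over 5 and up to 20 kb (23.0%). Their median width was 449.5 bp, against 493 bp in satellites. Median scores were alike in the 4 classes, at 73.99 for satellites, 73.24 and 73.91 for the middle classes and 72.4 for peaks alone.

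Narrow peaks also had fewer wider peaks around them than wider peaks had. The median number of wider peaks with a midpoint within 50 kb, the peak itself not counted, was 6 around narrow peaks (quartiles 3 and 10) and 9 around wider peaks (6 and 12). With 59.2 wider peaks per 1 Mb window on average, the median around narrow peaks was near the mean density of the large arms. Wider peaks were counted from inside their own clusters, and counts around arbitrary positions were not taken. Whether narrow peaks lie in sparse stretches was thus not tested. No wider midpoint lay within 10 kb of 192 narrow peaks (29.7%), against 824 wider peaks (11.9%). Local density moves with the gap, so the shares were also taken within classes of it. Where 13 or more wider peaks lay within 50 kb, 20 of 68 narrow peaks (29.4%) and 769 of 1301 wider peaks (59.1%) were within 1 kb of a wider peak. With 8 to 12 such peaks around, the shares were 28.6% of 182 narrow and 46.5% of 2864 wider peaks, and with 4 to 7 they were 21.6% of 222 and 34.9% of 2054. With 0 to 3 around, they were 16.0% of 175 narrow and 19.3% of 690 wider peaks. The difference was thus largest in the densest of these 4 classes and smallest in the sparsest, where the median gaps still stood at 11577 bp for narrow and 4842.5 bp for wider peaks.

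The satellites were then set beside their wider neighbours. Of the 148 satellites, 135 (91.2%, exact 95% binomial interval 85.4 to 95.2%) had a lower score than the wider peak next to them. The choice by width largely fixes this count. Over all pairs of a satellite with any wider peak of the arms the satellite was lower in 86.2%, and of the 499 narrow peaks that were no satellites 444 (89.0%) scored under their nearest wider peak. The neighbour lay to the left of 69 satellites and to the right of 79. The gap was 100 bp or less for 30 satellites (20.3%), with a lowest value of 1 bp and a median of 330.5 bp. Only 11 satellites (7.43%) had a wider peak within 1 kb on both sides, whereas 523 of the 2951 wider peaks within 1 kb of another (17.7%) did.

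**Figure D3:**
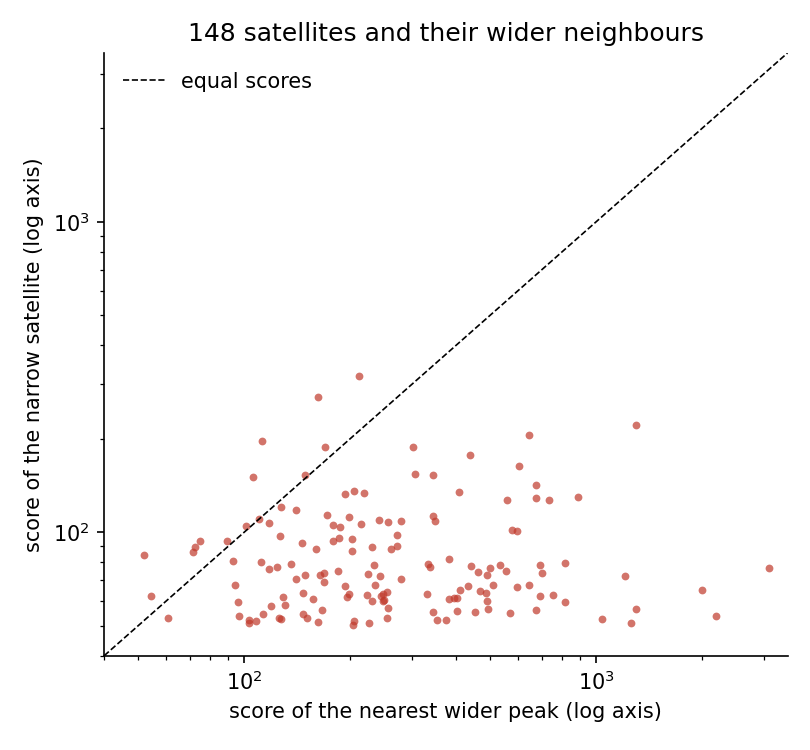
Each point is 1 of the 148 satellites, with the score of the nearest wider peak (log axis) against its own score (log axis). The 135 points below the dashed line of equal scores have the lower score, and 13 lie above it.

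Satellites were seldom companions of the broadest peaks. Their neighbours had a median width of 1010.5 bp (quartiles 779.5 and 1438.75 bp), against 1478 bp for all wider peaks, and 95 of the 148 neighbours (64.2%) were under 1200 bp, against 37.2% of all wider peaks. A narrow peak lay within 1 kb of 41 of the 911 wider peaks of 600 to under 800 bp (4.50%), 58 of the 1660 of 800 to under 1200 bp (3.49%), 43 of the 2728 of 1200 to under 2400 bp (1.58%), 12 of the 1104 of 2400 to under 4000 bp (1.09%) and 1 of the 506 of 4000 bp or more (0.198%). Another wider peak within 1 kb ran in the opposite order over the same classes, at 34.1%, 39.0%, 44.6%, 46.0% and 52.6%. At the middle of the scores the neighbours were close to all wider peaks, although they were narrower. Their median was 237.97, against 223.09 for all wider peaks, and 8 of them (5.41%) scored 1000 or more, against 7.41%. Fewer neighbours scored under 100, with 11 (7.43%) against 19.2%. All wider peaks of 600 to under 800 bp had a median score of 107.0, and those of 800 to under 1200 bp had 146.0. The neighbours had a median score above that of either class, but those of 1200 bp or more are counted in it. All wider peaks of 1200 to under 2400 bp had a median score of 246.2, and those of 2400 bp or more had 577.5. No median was taken for the 95 neighbours under 1200 bp alone, so neighbours were not compared with peaks of their own width.

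The single satellite of a peak of 4000 bp or more was chrX:11316413-11316981, with a score of 76.8, which lay 54 bp from chrX:11317036-11321933, a peak of 4898 bp with the shared score of 3100. The next strongest neighbours belonged to chr3L:2797718-2798146, a narrow peak of score 53.71 lying 189 bp from a wider peak of 2578 bp and score 2193.9, and to chrX:19214714-19215130, of score 64.99, at 716 bp from one of 3794 bp and score 2002.48. Both satellites of chr3R:25144178-25145573, a wider peak of score 1301.68, complete the set. The left one, chr3R:25143261-25143596, scored 56.61, and the right one, chr3R:25145828-25146161, scored 220.76. Of these 5 satellites 4 scored 76.8 or less, near the median of narrow peaks or below it, although each neighbour scored over 1000.

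Most wider peaks with a satellite had only 1. Satellites were few beside wider peaks, and the numbers that other arrangements would give were not computed. Of the 143 wider peaks that were the nearest neighbour of a satellite, 2.07% of all wider peaks, 138 had 1 and 5 had 2, and none had more. Besides the one on 3R named above, the wider peaks with 2 satellites were chr2L:16447906-16448623 (score 178.93), chr3L:9120612-9123322 (675.55), chr3L:10082294-10082899 (126.94) and chr3R:20421167-20422235 (255.24). Around chr3L:9120612-9123322 the gaps were 2 and 9 bp, with satellites of 437 and 412 bp and scores of 141.91 and 56.29. At chr3R:20421167-20422235 both satellites lay on the left, at 4 and 714 bp.

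In 13 satellites the narrow peak had the higher score. The largest was the peak of score 318.08 on 3R, whose neighbour chr3R:16976544-16977661 scored 212.63. Next came chr3R:8785854-8786441 with 273.01, beside a wider peak of 1009 bp with 162.09, and chr3L:8448209-8448772 with 196.36, which lay 3 bp from one of 830 bp with 112.02. The neighbours of all 13 scored between 51.75 and 212.63. Each was thus under the median of 223.09 for wider peaks. Few narrow peaks exceeded that median, so the choice of these 13 largely fixes this. Of the 13 neighbours, 2 were over 2000 bp wide.

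The 90 narrow peaks alone were mostly without any company. For 69 of them no peak of any width lay within 20 kb, while 21 had another narrow peak within that distance. The median score of the 90 was 72.4, near the 73.55 of all narrow peaks. A score of 100 was reached by 23 of the 90, against 159 of all 647 narrow peaks (24.6%). A score of 150 was reached by 9 of the 90, against 38 of all 647 (5.87%), a difference that was not tested. A gap over 50 kb was found for 28 narrow peaks and a gap over 100 kb for 12. The largest, 190.217 kb, belonged to chr2L:1420168-1420697 (530 bp, score 98.14), and the third largest, 174.664 kb, to chr2L:1361433-1362009 (577 bp, score 136.81). These 2 were each other's nearest peaks, 58.158 kb apart, inside 1 long stretch without wider peaks. The pair chrX:22235228-22235814 (score 119.92) and chrX:22256932-22257302 (score 64.72) had gaps of 176.522 and 155.034 kb and lay 21.117 kb from each other. The largest gaps on the other arms were 150.104 kb for chr2R:17759300-17759632 (score 50.72), 104.826 kb for chr3R:12695013-12695471 (score 88.17), 72.431 kb for chr3L:4898808-4899229 (score 93.42) and 53.711 kb for chr4:980363-980909 (score 101.43). None of these 8 peaks reached a score of 150.

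The next peak along an arm was narrow more often after a narrow peak than after a wider one. Of the 646 narrow peaks with a further peak on their arm, 138 (21.4%) had a narrow peak next in order, against 508 of 6904 wider peaks (7.36%). Of these 138 pairs of narrow peaks 64 had a gap of 5 kb or less. The nearest peak of any width was itself narrow for 150 narrow peaks (23.2%), and 51 lay within 1 kb of a narrow but not of a wider peak. Runs of narrow peaks with gaps of 5 kb or less numbered 58 and held 122 peaks, but only 4 runs had 3 or more members. The longest had 4. One on 3L ran from 17910956 to 17921508, with scores of 93.84, 115.36, 56.49 and 79.61. The other, on X from 16812793 to 16818618, had scores of 150.21, 109.45, 64.51 and 69.1. Where peaks of any width crowd together, in runs of 5 or more with midpoints within 5 kb, 71 narrow peaks (11.0% of them) took part, against 1134 wider peaks (16.4%). Of the 293 peaks with no other midpoint within 20 kb, 74 (25.3%) were narrow, which was 11.4% of narrow and 3.17% of wider peaks.

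By chromosome arm the narrow peaks followed the wider ones with small shifts. Arm 3R held 171 (26.4% of narrow and 23.4% of wider peaks), 3L 146 (22.6% and 20.3%), 2L 117 (18.1% and 16.8%), 2R 111 (17.2% and 20.5%), X 100 (15.5% and 18.5%) and chromosome 4 held 2 (0.309% and 0.463%). Their share of the peaks of an arm was 9.56% on 3R (exact 95% binomial interval 8.24 to 11.0%), 9.43% on 3L (8.02 to 11.0%), 9.13% on 2L (7.61 to 10.8%), 7.28% on 2R (6.03 to 8.71%), 7.24% on X (5.93 to 8.74%) and 5.88% on chromosome 4 (0.720 to 19.7%). The intervals of neighbours in this order overlap. The span of an arm was taken from its first to its last peak. Per Mb of span, narrow peaks numbered between 4.47 on X and 6.27 on 3L among the large arms. Wider peaks numbered between 50.9 on 2L and 67.5 on 2R. Arm 2R, with the most wider peaks per Mb, had 5.30 narrow peaks per Mb, close to the 5.12 of 2L. The median score of narrow peaks varied little, from 69.9 on 3L to 76.3 on X among the large arms, where wider peaks had medians of 200.89 on 2R to 256.85 on X. The 2 narrow peaks of chromosome 4 were chr4:980363-980909 and chr4:1059241-1059803, with scores of 101.43 and 64.61.

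Shares in windows along the arms ranged more widely than those of whole arms, and each rests on far fewer peaks. In windows of 1 Mb the narrow share averaged 10.4 ± 5.78% on 3L (SD, n = 23 windows), 10.2 ± 4.58% on 3R (n = 27), 9.20 ± 5.18% on 2L (n = 22), 8.10 ± 4.60% on 2R (n = 21) and 6.87 ± 3.69% on X (n = 22). The SD is the spread of single windows and not of a mean, so it does not measure whether the means of the arms differ, which was not tested. A window held 5.51 ± 2.76 narrow peaks on average and 59.2 ± 19.0 wider peaks (n = 115 windows). The highest shares were in the windows from 6000001 to 7000000 on 3L, with 11 of 40 peaks (27.5%), from 14000001 to 15000000 on 2L, with 8 of 39 (20.5%), and from 15000001 to 16000000 on 3R, with 10 of 49 (20.4%). The lowest was from 21000001 to 22000000 on 2L, with 0 of 39. If a count of 0 is taken to allow up to 3, its share could be up to 7.69%. That is an approximate rule and not the exact interval used elsewhere. Next came the windows from 5000001 to 6000000 on 2R, with 1 of 95 (1.05%), and from 19000001 to 20000000 on 2R, with 1 of 78 (1.28%).

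**Figure D4:**
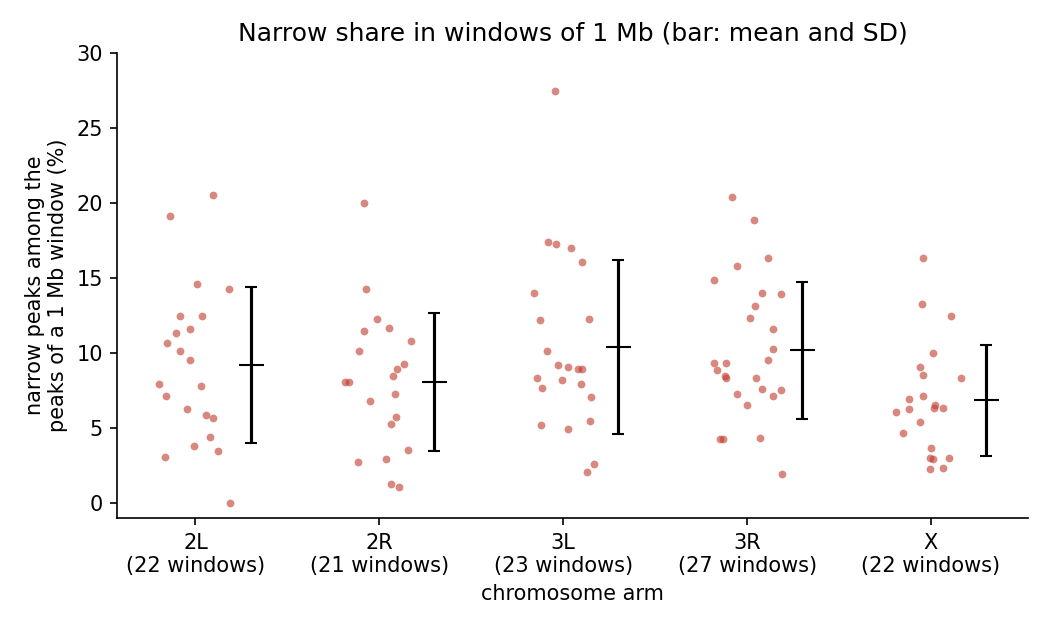
Each point is the narrow share (percent) of the peaks in a 1 Mb window of a large arm, and the bar beside the points gives the mean and SD over windows. The points of all 5 arms overlap, with means from 6.87% on X to 10.4% on 3L and a highest window of 27.5% on 3L.

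The number of narrow peaks in a window did not go with the number of wider ones. Spearman's rho was 0.08 across the 115 windows. The 38 windows having the fewest wider peaks (4 to 50) held 5.05 ± 3.13 narrow peaks (SD), the 39 middle windows (51 to 67) held 5.79 ± 2.49 and the 38 with the most (68 to 101) held 5.68 ± 2.63. Narrow peaks therefore made up 11.8%, 8.75% and 6.67% of all peaks in these classes, a share that falls by construction as the wider peaks in it grow in number. Arm ends were measured from the outermost peak of each arm and not from the end of its sequence. At the telomere-side 1 Mb of the large arms 16 of 323 peaks (4.95%) were narrow. At the centromere-side 2 Mb 30 of 408 (7.35%) were, and in the rest 599 of 6791 (8.82%). The telomere-side share was not low on each arm. It was 1.98% on 3L, 2.33% on X and 3.08% on 2L, but 7.84% on 3R and 11.1% on 2R.

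The gap to wider peaks was compared arm by arm as well. On each of the 5 large arms fewer narrow than wider peaks lay within 1 kb of a wider peak. The shares were 18.0% of narrow and 42.1% of wider peaks on 2R, 21.4% and 40.8% on 2L, 21.9% and 47.2% on 3L, 22.8% and 40.2% on 3R, and 32.0% and 43.6% on X. The exact 95% intervals count clustered peaks as independent and are no test. Those of both classes were apart on 2L, 2R, 3L and 3R, while on X that of narrow peaks (23.0 to 42.1%) met that of wider ones (40.9 to 46.4%). Peaks alone were more frequent in the narrow class on these arms, with shares of 17.1% of narrow and 2.76% of wider peaks on 2R, 16.2% and 4.73% on 2L, 15.2% and 4.45% on 3R, 11.6% and 3.92% on 3L, and 8% and 2.81% on X. The X thus had the highest satellite share and the lowest share of narrow peaks alone, a difference between arms that was not tested. On chromosome 4 neither of the 2 narrow peaks was a satellite (exact interval up to 84.2%), and their gaps were 53711 and 3931 bp.

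**Figure D5:**
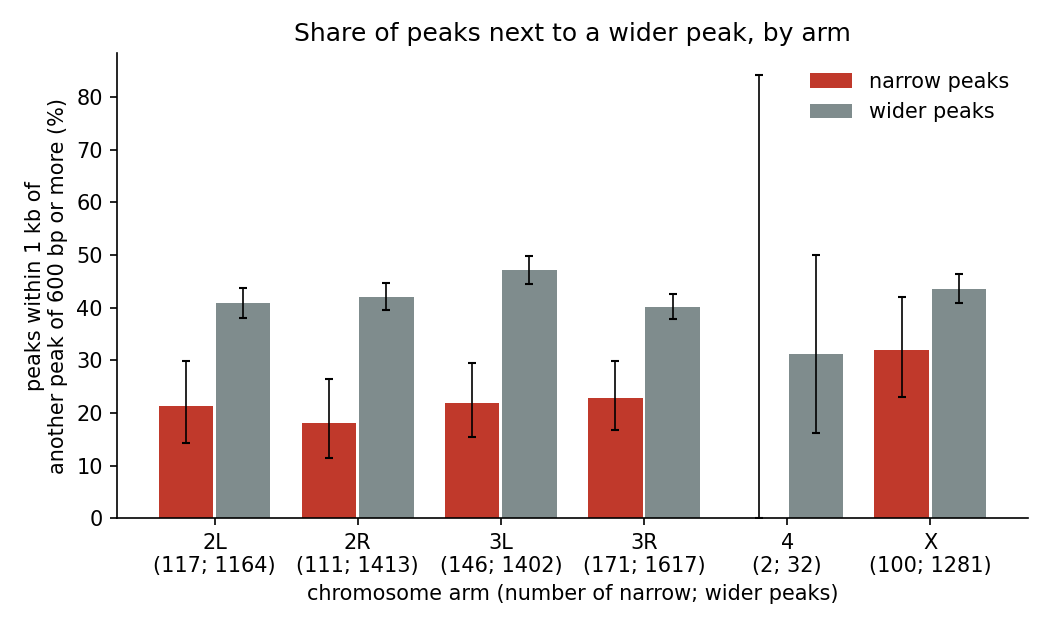
Share of peaks (percent) within 1 kb of another peak of 600 bp or more on each arm, narrow peaks on the left of each pair and wider peaks on the right, with exact 95% binomial intervals. Narrow peaks are lower on all 5 large arms, from 18.0% on 2R to 32.0% on X, against 40.2% to 47.2% for wider peaks.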

How the data were processed

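One ChIP-seq peak list was used, that of the cad-GFP ChIP sample. MACS was the peak caller, per the file headers. Bowtie was the aligner and BDGP5 the build, per the submitters' processing notes. For their versions, settings and any pooling of replicates, the sources used here give nothing. For each peak the authors deposited a start, an end and a score. Read depth is unknown. Printed starts count from 1, since the deposited ones were read as 0-based.

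Width is end minus start. Gaps, classes, 1 Mb windows with a midpoint inside (the last, incomplete window of each arm left out), exact binomial intervals and order-statistic intervals of medians were computed with Python 3.11.15, pandas 2.3.3 and SciPy 1.17.1, and the gap calculation was checked on a made-up list with known gaps. No test was made: the list is single, peaks cluster, and all measures come from 1 call. Positions named were the 10 highest scores, the narrowest and the most distant narrow peak of each arm, the 5 largest gaps, the satellites of the 5 strongest neighbours, the wider peaks with most satellites, the longest runs, the 3 windows at each end and 3 peaks on each side of the threshold. The 3 satellites named for exceeding their neighbour were picked after their values were seen. The members and classes were chosen with earlier results of these data known. The differences of shares between narrow and wider peaks and the comparisons within score, width and density classes were added after seeing the data. Alternatives were other limits of width, score, satellite and alone distance, merging, and other neighbours.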

Additional observations from a re-analysis of the deposited data

Results flagged for a closer look

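Outside the 6 arms, in sequences that the comparisons above did not use, 9 of 23 peaks (39.1%) were under 600 bp, against 8.56% on the arms. They are given because they lie in data outside the comparisons. No control values were analysed for them. Of these 9 peaks, 5 were under 250 bp, a width that 0 of the arm peaks had. One on Uextra, a set of unplaced sequence, from 5224012 to 5224467 (456 bp), had a score of 1132.11, above the highest score of a narrow arm peak, 318.08. The other 8 scored from 53.59 to 156.34, and 1 of them lay on the mitochondrial genome.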

How the results depend on the processing

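With narrow set under 500 bp there were 342 narrow peaks (4.53% of the arm peaks, median score 67.5), and under 700 bp 1101 (14.6%, median score 79.8). By arm their shares were 4.61% and 15.5% on 2L, 3.81% and 14.04% on 2R, 5.04% and 16.5% on 3L, 5.15% and 15.2% on 3R, 3.98% and 11.4% on X, and 0% under 500 bp on chromosome 4. These follow from the limit itself. Among peaks of score 100 or more, 159 were narrow (2.77%, median score 124.95), with 2.95% on 2L, 2.57% on 2R, 2.62% on 3L, 3.33% on 3R and 2.24% on X. In that set 17.0% of narrow peaks were alone, 82.1% of satellites scored under their neighbour, and the satellite share of narrow peaks was 11.6 percentage points under that of wider peaks (a difference of -11.6), where the whole list gave -19.8. The difference of shares was added after seeing the data. It was -15.3 after merging across 100 bp, -9.55 after merging across 500 bp, -15.3 for satellites within 500 bp and -23.6 within 2 kb. It lay below 0 in all 8 of its alternatives. The satellite share itself was 8.15% after merging across 500 bp, which removes short gaps by construction, 16.1% within 500 bp, 34.8% within 2 kb and 8.66% with neighbours of 1200 bp or more. The median gap was 5582 bp after merging across 500 bp, 5043 bp between midpoints and 12286 bp to neighbours of 1200 bp or more. The alone share was 17.1% after merging across 500 bp, 28.0% beyond 10 kb, 4.33% beyond 50 kb and 10.7% counting peaks of any width. Its difference from wider peaks, 10.05 points, was 18.6 beyond 10 kb and 3.43 beyond 50 kb, and lay above 0 in all 8 of its alternatives. Of 91 alternative values, 46 stayed within the interval of the reported value (for the number of narrow peaks, within 1.5 times) and 45 did not. For the 2 differences of shares this interval was that of the narrow share alone, shifted to the difference, without the spread of the wider share. Only the 16 alternatives of the 2 differences could change sign, and 0 of them did. No paired analysis was possible because there is 1 peak list and no test. Leaving out a replicate was not possible for the same reason. The unknown depth limits what an absent peak or a gap can mean.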
